A study of Rattus norvegicus with 8 samples.

Results

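The genes of 7 brain Eph receptors, *Epha4*, *Epha5*, *Epha6*, *Epha7*, *Epha10*, *Ephb1* and *Ephb2*, of both LIM kinases, *Limk1* and *Limk2*, and of cofilin, *Cfl1*, were examined in the rat hippocampus. The 10 genes were found by their NCBI gene identifiers among 22601 genes listed for each library, and all 10 had a value in every library. Messenger RNA of 8 wild type Wistar rats, 180 to 220 g at purchase, was sequenced, 1 library per rat, giving 3 Con., 3 PTZ and 2 Q808 libraries. Rats of the PTZ and Q808 groups were kindled with repeated injections of pentylenetetrazole (PTZ), a convulsant that blocks GABA-A receptors, whereas Con. rats received saline. The Q808 group was then given Q808, the candidate antiepileptic compound of the study, by mouth every day, and the Con. and PTZ groups were given its solvent. A further injection of PTZ in the PTZ and Q808 groups preceded collection of the tissue, so the PTZ group combined kindling with a recent injection. Sex and age were not given in the sources used here.

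Eph receptors are receptor tyrosine kinases that bind ephrins, ligands anchored in the membrane of a neighbouring cell, and the contact can signal into both cells. In the hippocampus they are known for axon guidance, for the shape of dendritic spines and for synaptic plasticity. Their signals reach the actin cytoskeleton, in part through LIM kinases. LIM kinases phosphorylate cofilin and thereby inactivate it, and since cofilin severs actin filaments, its phosphorylation stabilizes the actin of the spine. These steps act on proteins and their phosphorylation, whereas the values here are levels of mRNA.

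The unit is FPKM, fragments per kilobase of transcript scaled to the mapped fragments of each library. Library depth varied by 1.39 times between the shallowest and the deepest library. Replicates share a label and came from separate rats. Before the groups were compared, the labelled tissue was checked with marker genes, and 3 libraries stood apart. In Con.-3, PTZ-3 and Q808-1 the summed FPKM of 8 striatum markers, such as *Drd1* and *Adora2a*, lay between 760 and 1656, against 59.4 to 81.4 in the other 5 libraries, and all 8 markers were higher. In the same 3 libraries the sum of 6 CA pyramidal cell markers was 56.2 to 121 against 255 to 341. That of 6 dentate granule cell markers was 47.7 to 129 against 156 to 199, and that of 8 oligodendrocyte markers was 6963 to 13758 against 2681 to 4463. Without overlap, 5 of the CA pyramidal cell markers and 2 of the dentate granule cell markers were lower, and all 8 oligodendrocyte markers were higher. These libraries, 1 from each group, are called striatum-rich and the other 5 striatum-poor. The comparisons are given with and without them.

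**Figure D1:**
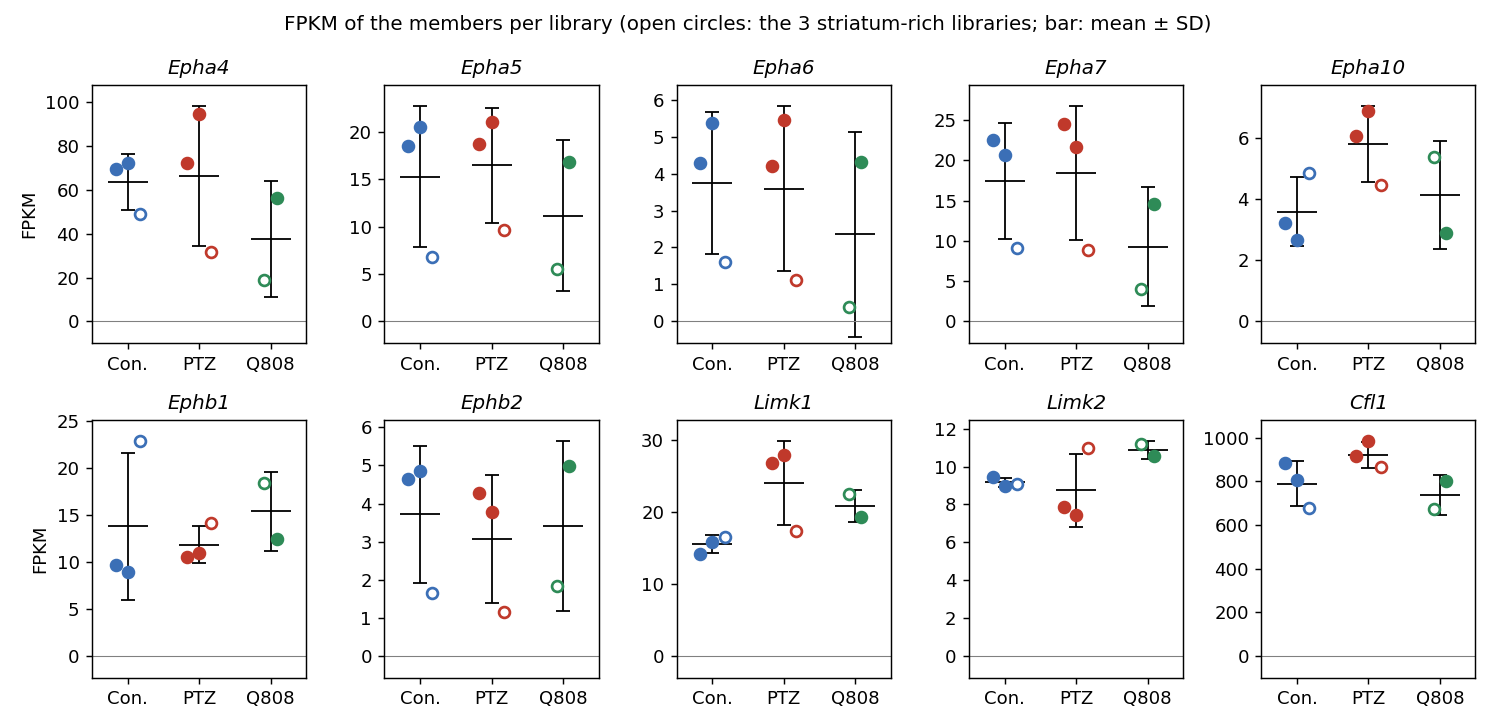
FPKM (linear axis) of the 10 genes in every library, with libraries as circles (open for striatum-rich) and the group mean ± SD as bars for the Con. (n = 3), PTZ (n = 3) and Q808 (n = 2) groups. *Limk1* in all 3 PTZ libraries, 17.4 to 28.0 FPKM, lay above all 3 Con. libraries, 14.2 to 16.6 FPKM, and the open circles lay lowest for *Epha4*, *Epha5*, *Epha6*, *Epha7* and *Ephb2*.

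The 10 genes spanned a wide range of levels. In the Con. group *Cfl1* had the highest level, 789 ± 103 FPKM (SD, n = 3), followed by *Epha4*, 63.6 ± 12.7 FPKM. *Epha7*, *Limk1*, *Epha5* and *Ephb1* followed at 17.4 ± 7.24, 15.6 ± 1.25, 15.3 ± 7.41 and 13.8 ± 7.82 FPKM, and these neighbours did not differ beyond their spread. *Limk2* lay at 9.16 ± 0.239 FPKM. *Epha6*, *Ephb2* and *Epha10* were the lowest, at 3.75 ± 1.92, 3.72 ± 1.79 and 3.59 ± 1.13 FPKM, and they too could not be ordered. *Cfl1* has near-identical processed copies in the genome, and how reads were divided among them is not given in the sources used here, so its level is uncertain.

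*Limk1* and *Epha10*, the pair of members higher in the PTZ group, are shown with their promoters because both carried the main difference. The 250 bases before the annotated start were taken from RefSeq (GRCr8), where 9 of the 10 members were found. *Epha4* was the member without an entry. In the *Limk1* window, chr12:27662927-27663176 on the + strand, the capitals mark the GC box, GGGCGG on either strand. In the *Epha10* window, chr5:142424046-142424295 on the + strand, they mark the AP-1 motif, TGANTCA, where N is any base.
Limk1: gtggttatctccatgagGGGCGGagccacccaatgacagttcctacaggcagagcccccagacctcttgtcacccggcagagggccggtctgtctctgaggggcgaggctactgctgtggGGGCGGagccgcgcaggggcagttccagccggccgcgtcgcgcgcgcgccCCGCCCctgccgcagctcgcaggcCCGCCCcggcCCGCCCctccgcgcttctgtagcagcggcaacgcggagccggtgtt
Epha10: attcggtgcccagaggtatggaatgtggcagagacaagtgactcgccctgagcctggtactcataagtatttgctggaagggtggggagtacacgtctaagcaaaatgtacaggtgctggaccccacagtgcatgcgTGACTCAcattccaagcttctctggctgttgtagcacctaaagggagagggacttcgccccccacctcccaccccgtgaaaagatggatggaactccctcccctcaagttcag
The *Limk1* window held 5 GC boxes, 27 CpG pairs and 72.8% G and C, against medians of 6 CpG pairs and 52% over 27457 promoters, of which 32.4% held a GC box. The *Epha10* window held 1 AP-1 match, a motif present in 6.36% of all promoters, 6 CpG pairs and 54.4% G and C. GC boxes were also found in 4 other members' windows (*Epha6*, *Epha7*, *Limk2* and *Cfl1*), and the AP-1 letters in no other. The letters of a full cAMP response element (TGACGTCA), an EGR1 site (GCGTGGGCG) or a TATA box (TATAAA) were in none of the 9 windows on either strand, against 1.70%, 0.514% and 13.1% of all promoters. The shorter core TGACG, which is part of the full element, was in the *Ephb1* window alone and in 19.0% of all promoters. These matches describe the letters only.

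The PTZ group, kindled and recently injected with PTZ, was compared with the Con. group, and the parts of kindling and injection cannot be told apart. *Limk1* and *Epha10* were higher in the PTZ group, 2 of 10 members called against 2.53% of all 15593 genes tested, and the other 8 members did not pass. A gene counted as called where the p-value of limma before adjustment was below 0.05 and the fold exceeded 1.5. The members were chosen with earlier results of these data known, so this share is a description. With Benjamini-Hochberg adjustment over all genes no gene passed in this comparison (589 genes had an unadjusted p-value under 0.05), so the calls rest on unadjusted values. For a single gene an exact permutation test of 3 against 3 libraries cannot give less than p = 0.1, and 2 against 3 libraries cannot either.

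*Limk1*, the LIM kinase that is abundant in brain, measured 14.2, 15.9 and 16.6 FPKM in Con.-1, Con.-2 and Con.-3. In PTZ-1, PTZ-2 and PTZ-3 it measured 26.9, 28.0 and 17.4 FPKM. The groups did not overlap, which was so for 9.15% of all genes, but PTZ-3 lay just above Con.-3, far below the other PTZ libraries. These values rest on 712 to 1560 fragments per library, a counting error of 2.53% to 3.75%, which is less than the spread of the PTZ group, 24.1 ± 5.79 FPKM (n = 3), against 15.6 ± 1.25 FPKM (n = 3). *Limk1* was 1.52-fold higher in the PTZ group (log2 fold change 0.60, SE 0.20, 95% interval 0.12 to 1.08, limma adjusted p = 0.999, range 0.0402 to 1.00 over the alternatives). The exact two-sided permutation test gave p = 0.1, the smallest it can give. The call was lost without Con.-1, PTZ-1 or PTZ-2, with log2 fold changes of 0.53, 0.51 and 0.48. Among the striatum-poor libraries, 2 of each group, the log2 fold change was 0.87 (SE 0.11, limma adjusted p = 0.0402), or 1.82-fold. Between the striatum-rich PTZ-3 and Con.-3 the log2 difference was 0.07, with 1 library of each group and no test of its own. The difference between these effects was 0.80 on the log2 scale (SE 0.19, limma adjusted p = 0.123). In the same limma test 22.7% of all genes had an unadjusted p-value under 0.05.

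*Epha10*, an Eph receptor whose kinase domain is thought to be inactive, measured 3.24, 2.68 and 4.86 FPKM in Con.-1, Con.-2 and Con.-3. In PTZ-1, PTZ-2 and PTZ-3 it measured 6.07, 6.89 and 4.46 FPKM. The groups overlapped, because Con.-3 exceeded PTZ-3, and these are the striatum-rich libraries. *Epha10* was 1.62-fold higher in the PTZ group (log2 fold change 0.70, SE 0.29, 95% interval 0.02 to 1.37, limma adjusted p = 0.999, range 0.0803 to 1.00 over the alternatives). The exact two-sided permutation test gave p = 0.2. With the replicate number as a block the same fold change was no longer called (limma adjusted p = 0.792), nor was *Epha10* called without Con.-1, Con.-2, PTZ-1 or PTZ-2, with log2 fold changes of 0.65, 0.52, 0.65 and 0.57. Within the striatum-poor libraries *Epha10* was 2.15-fold higher (log2 fold change 1.11, SE 0.19, limma adjusted p = 0.0803), and between PTZ-3 and Con.-3 the log2 difference was -0.12. The effects differed by 1.23 (SE 0.32, limma adjusted p = 0.135).

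In the striatum-poor libraries these 2 members were again the ones called, beside 9.82% of all genes, and the median log2 difference of all genes there was -0.11. Other cell type markers also moved between the same libraries. The summed FPKM of 6 choroid plexus markers was 2503 and 2530 in Con.-2 and Con.-1 and 277 and 407 in PTZ-2 and PTZ-1, with *Otx2* of that list at 0 in every library. The sum of 6 astrocyte markers was 839 and 843 in the Con. and 946 and 1035 in the PTZ libraries, with 3 of the 6 higher without overlap. The part of these markers in the difference of *Limk1* and *Epha10* was not tested, and in bulk tissue fewer cells of a type and less RNA per cell cannot be told apart.

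The other 8 members gave intervals that included 0 in PTZ against Con. *Limk2*, the more widely expressed LIM kinase, measured 9.43, 8.97 and 9.08 FPKM in the Con. and 7.85, 7.42 and 10.96 FPKM in the PTZ libraries, a log2 fold change of -0.09 (95% interval -0.53 to 0.36). PTZ-1 and PTZ-2 thus lay below all Con. libraries and PTZ-3 above them. *Cfl1*, the substrate of both kinases, measured 883, 805 and 679 FPKM in the Con. and 919, 984 and 866 FPKM in the PTZ libraries, a log2 fold change of 0.23 (95% interval -0.16 to 0.63). The *Cfl1* values overlapped, since Con.-1 exceeded PTZ-3. *Epha4*, the most abundant of these receptors and one that binds both classes of ephrin, had a log2 fold change of -0.06 (95% interval -0.99 to 0.87). For *Epha5*, *Epha6*, *Epha7*, *Ephb1* and *Ephb2* the log2 fold changes lay between -0.32 and 0.18, with intervals at least as wide as that of *Ephb1*, -0.94 to 0.76. Such intervals leave room for differences well past 1.5-fold in either direction. In the striatum-poor libraries *Epha5*, *Epha6* and *Epha7* had log2 fold changes of 0.03, 0.00 and 0.10, with SE of 0.12, 0.21 and 0.11.

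**Figure D2:**
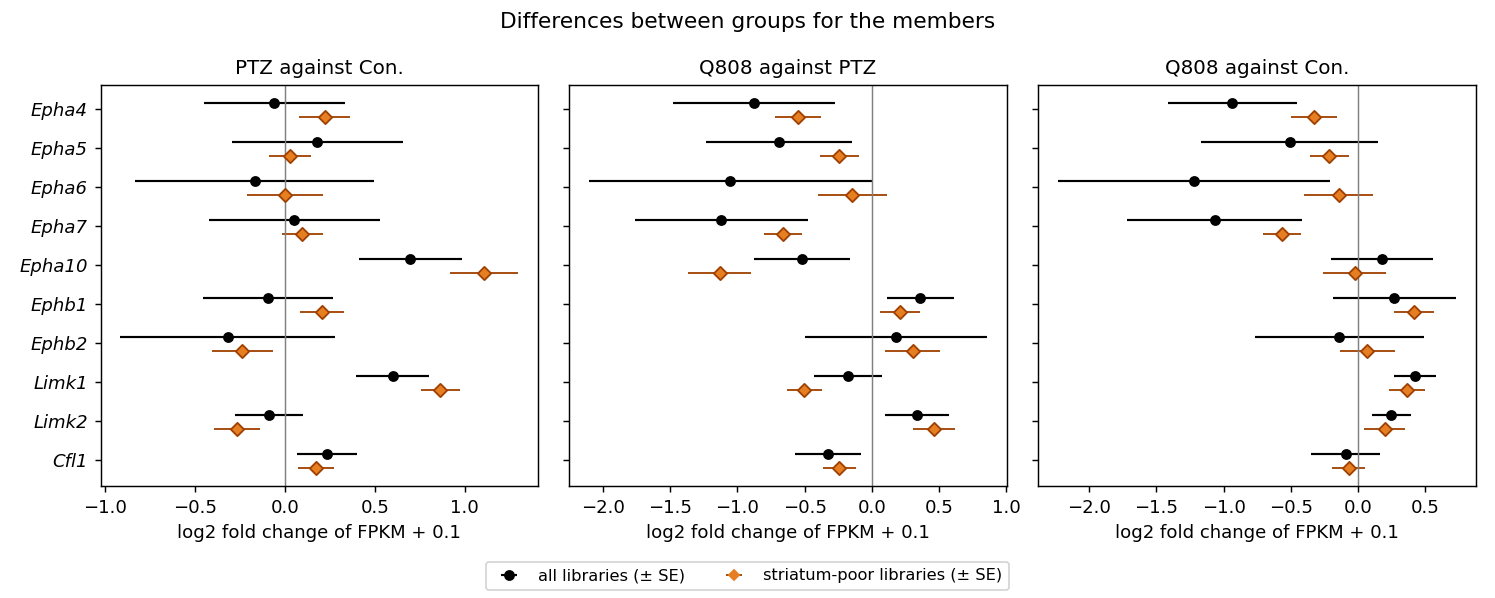
Log2 fold change of FPKM + 0.1 (horizontal axis, its range differs between panels) of the 10 genes in the 3 comparisons, over all libraries (black circles) and over the striatum-poor libraries (orange diamonds), each with ± SE from limma. In PTZ against Con. *Limk1* (0.60 and 0.87) and *Epha10* (0.70 and 1.11) lay farthest to the right, and in Q808 against PTZ *Epha10* lay at -0.52 and -1.13.

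The Q808 group was compared with the PTZ group to see what the compound changed in kindled rats. None of the 10 members was called, against 1.92% of all genes (over all genes 341 had an unadjusted p-value under 0.05 and none passed after adjustment). *Limk1* measured 22.5 and 19.3 FPKM in Q808-1 and Q808-2, so both lay between PTZ-3 and PTZ-1. Its log2 fold change was -0.18 (SE 0.25, 95% interval -0.79 to 0.44, exact two-sided permutation p = 0.6), and it lay between -0.39 and -0.05 with each library left out. *Epha10* measured 5.38 and 2.89 FPKM in Q808-1 and Q808-2, so that Q808-2 lay below all PTZ libraries and Q808-1 among them. Its log2 fold change was -0.52 (SE 0.36, 95% interval -1.38 to 0.34, exact two-sided permutation p = 0.4). Without Q808-2 it was -0.08 and without Q808-1 it was -0.96, neither of them called. *Cfl1* was the single member whose groups did not overlap, with 674 and 804 FPKM in Q808-1 and Q808-2, against 15.6% of all genes, and its log2 fold change was -0.32 (95% interval -0.92 to 0.27). *Limk2* measured 11.2 and 10.6 FPKM in these libraries, with Q808-1 above and Q808-2 below PTZ-3.

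The A class receptors other than *Epha10* differed widely between the Q808 libraries themselves. *Epha4* measured 18.9 FPKM in Q808-1 and 56.5 FPKM in Q808-2, and *Epha7* measured 4.03 and 14.5 FPKM. *Epha5*, a receptor for A class ephrins like the others, measured 5.52 and 16.8 FPKM, and *Epha6* measured 0.397 and 4.32 FPKM. Thus Q808-1, the striatum-rich library, had the lowest value of all 8 libraries for these 4 receptors. Their log2 fold changes against PTZ were -0.88, -1.12, -0.69 and -1.05, with SE of 0.60, 0.65, 0.54 and 1.05 in the same order. With Q808-1 alone, that is without Q808-2, the log2 fold changes were -1.66 for *Epha4*, -2.03 for *Epha7*, -1.48 for *Epha5* and -2.63 for *Epha6*. With Q808-2 alone the values for *Epha5* and *Epha6* turned to 0.11 and 0.52, and those for *Epha4* and *Epha7* shrank to -0.09 and -0.21. These values set striatum-poor Q808-2 against all PTZ libraries, with striatum-rich PTZ-3 among them. Against the striatum-poor PTZ libraries alone, *Epha4* and *Epha7* lay at -0.55 and -0.66, and *Epha5* and *Epha6* at -0.24 and -0.15.

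Among the striatum-poor libraries, where 1 Q808 library was set against 2 PTZ libraries and was assumed to vary like them, *Epha10* and *Epha7* were called lower, 2 of 10 members against 10.4% of all genes. *Epha10* was 2.19-fold lower in Q808-2 (log2 fold change -1.13, SE 0.23, limma adjusted p = 0.148). *Epha7* was 1.58-fold lower (log2 fold change -0.66, SE 0.14, limma adjusted p = 0.157), with 14.5 FPKM against 24.5 and 21.7 FPKM. *Limk1* had a log2 fold change of -0.50 (SE 0.13), which did not reach 1.5-fold. Nor did *Epha4*, at -0.55, or *Limk2*, which had the other sign, at 0.46. The median log2 difference of all genes in these libraries was 0.16. The choroid plexus sum was 6408 in Q808-2, above the 277 and 407 of the PTZ libraries, and its part in these differences was not tested. Between the striatum-rich Q808-1 and PTZ-3 the log2 differences had the other sign for *Epha10*, 0.27, and for *Limk1*, 0.37.

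The Q808 group was also set against the Con. group, which shares its libraries with the comparisons above. None of the 10 members was called, against 3.46% of all genes, of which 667 had an unadjusted p-value under 0.05 and 1 passed after adjustment. *Limk1* in both Q808 libraries, 22.5 and 19.3 FPKM, lay above the highest Con. value of 16.6 FPKM. Its log2 fold change of 0.42 (SE 0.15, 95% interval 0.04 to 0.81, limma adjusted p = 0.901) corresponded to 1.34-fold. That lay under the fold limit although the unadjusted p-value was under 0.05. The exact two-sided permutation test gave p = 0.2, the smallest it can give for 2 against 3 libraries. *Limk2* did not overlap either, with 11.2 and 10.6 FPKM against at most 9.43 FPKM (log2 fold change 0.25, 95% interval -0.12 to 0.61). These were 2 of 10 members without overlap, against 20.0% of all genes. *Epha10* gave 0.18 (95% interval -0.78 to 1.13), and the values of *Epha4* and *Epha7*, -0.94 and -1.07, had intervals of -2.13 to 0.26 and -2.69 to 0.55. Without Q808-2, *Epha4*, *Epha6* and *Epha7* lay at -1.72, -2.79 and -1.98. Without Q808-1, *Epha4* and *Epha7* lay at -0.15 each. Without Con.-3, *Ephb1* was called higher, at 0.70. In the striatum-poor libraries no member was called, against 4.53% of all genes. *Limk1* there had a log2 fold change of 0.36 (SE 0.13), *Ephb1* of 0.42 and *Epha7* of -0.56 (SE 0.14), all under the fold limit.

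Across the libraries the Eph receptors divided along the striatum markers more than along the groups. *Epha4*, *Epha5*, *Epha6*, *Epha7* and *Ephb2* were lower in all 3 striatum-rich libraries than in any striatum-poor one, 5 of 10 members against 9.59% of all genes. *Ephb1* was higher in all 3, 1 of 10 members against 15.2% of all genes. The other 4, *Epha10*, *Limk1*, *Limk2* and *Cfl1*, overlapped. The division was made from other genes of the same libraries, so these counts are a description.

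*Epha4* lay at 18.9 to 49.0 FPKM in the striatum-rich and 56.5 to 94.8 FPKM in the striatum-poor libraries, a 2.33-fold lower level. *Epha6* had the widest gap, 0.397 to 1.62 against 4.21 to 5.44 FPKM, or 4.73-fold lower, and *Epha7* was 2.94-fold lower at 4.03 to 9.13 against 14.5 to 24.5 FPKM. *Epha5* was 2.65-fold lower and *Ephb2*, a receptor for B class ephrins at excitatory synapses, was 2.82-fold lower. *Ephb2* rests on 41 to 239 fragments per library and *Epha6* on 56 to 1034, with counting errors of up to 15.6% and 13.4%, which are smaller than these gaps. *Ephb1*, also a receptor for B class ephrins, showed the opposite pattern, 14.1 to 22.8 against 8.93 to 12.4 FPKM, or 1.73-fold higher. Neuron markers were lower in the same libraries, with a summed FPKM of 1098 to 1672 against 2029 to 2662 and 5 of 6 markers without overlap, and their part in these gaps was not tested.

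**Figure D3:**
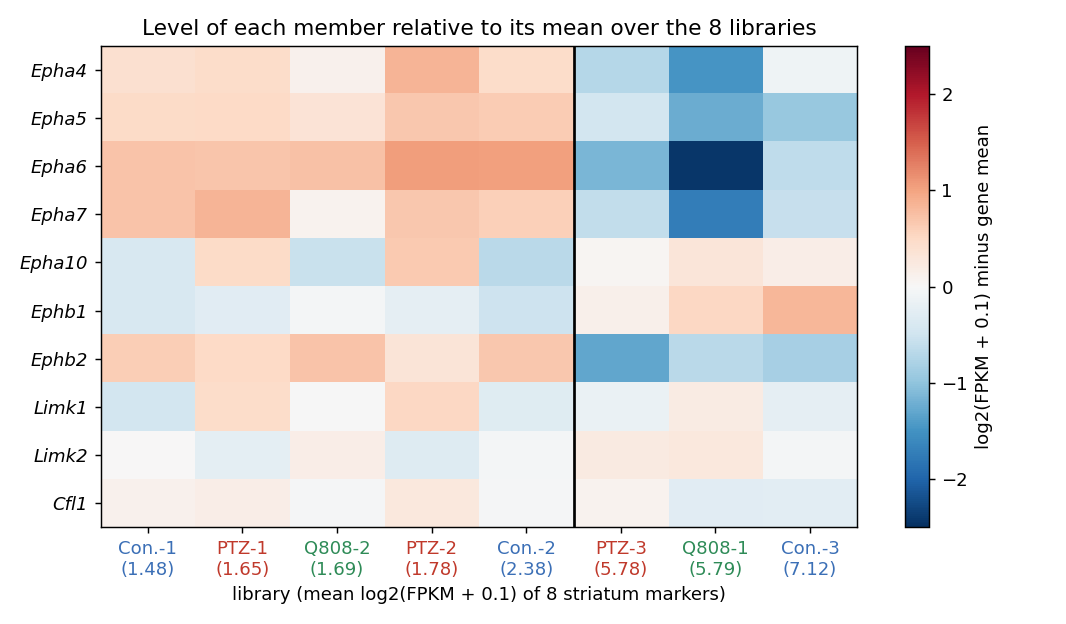
Log2(FPKM + 0.1) of each gene minus its own mean over the 8 libraries (color scale, blue lower and red higher), with libraries ordered by the mean log2 level of 8 striatum markers given in parentheses and a line between striatum-poor (left) and striatum-rich (right). *Epha4*, *Epha5*, *Epha6*, *Epha7* and *Ephb2* were lower to the right of the line, *Ephb1* was higher, and *Limk1* was highest in PTZ-2 and PTZ-1.

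Other genes of the pathway, though not every step of it, were described with 52 genes in 5 lists, of which 51 were tested. *Epha1* was not, because its mean was below 0.1 FPKM. In PTZ against Con., 2 of the 51 genes were called, and both were lower, beside 2.53% of all genes called in either direction. *Epha8*, an A class receptor, measured 24.9, 20.4 and 10.8 FPKM in the Con. and 12.1, 7.58 and 5.72 FPKM in the PTZ libraries, which overlapped (log2 fold change -1.12, SE 0.38, limma adjusted p = 0.999, range 0.101 to 1.00 over the alternatives). *Efna2*, an A class ephrin, measured 4.18, 4.27 and 4.996 FPKM in the Con. and 2.70, 2.31 and 3.42 FPKM in the PTZ libraries. Its groups did not overlap (log2 fold change -0.67, SE 0.23, limma adjusted p = 0.999, range 0.162 to 1.00 over the alternatives). Both were also called lower in the striatum-poor libraries, at -1.23 and -0.73.

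*Epha2*, an A class receptor best known from epithelia, was the single one of the 51 pathway genes called in the Q808 comparisons. Of all genes, 1.92% were called in Q808 against PTZ and 3.46% in Q808 against Con. It measured 0.395, 0.635 and 0.344 FPKM in the Con., 0.565, 0.566 and 0.778 FPKM in the PTZ and 1.74 and 1.71 FPKM in the Q808 libraries. Both Q808 libraries thus lay above all others. Of all genes, 15.6% did not overlap between Q808 and PTZ and 20.0% between Q808 and Con. The log2 fold change was 1.32 against PTZ (SE 0.36, limma adjusted p = 0.952, range 0.237 to 1.00 over the alternatives). Against Con. it was 1.75 (SE 0.35, limma adjusted p = 0.901, range 0.359 to 1.00 over the alternatives). Within the striatum-poor libraries these values were 1.45 and 1.59, and *Epha2* was called in both.

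No gene of 3 lists was called in any of the 3 comparisons. These were 21 Eph adaptors and effectors, 9 cofilin phosphatases and LIM kinase regulators, and 7 genes of the cofilin family and its partners. The list of 9 also held the kinase genes *Tesk1* and *Tesk2*. The median log2 fold changes of these 3 lists in PTZ against Con. were -0.17, -0.02 and -0.05, beside -0.04 over all genes. The 8 ephrins had a median of -0.12 and the 6 tested receptors outside the members one of 0.14. The most abundant gene of each list is given for scale. *Chn1*, encoding alpha-chimaerin, which acts downstream of EphA4, had a mean of 216 FPKM over the 8 libraries. *Nisch*, encoding the LIM kinase binding protein nischarin, had 81.0 FPKM, and *Cap1*, an actin-binding partner of cofilin, 141 FPKM. Among the ligands *Efnb3* was highest at 31.7 FPKM, and among the other receptors *Ephb6* at 16.5 FPKM.

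In the striatum-poor libraries more of these 51 genes were called, but so were more of all genes, by the shares given above. These calls are a description. In PTZ against Con. *Arhgef15* and *Vav3*, encoding guanine nucleotide exchange factors, were called lower. With *Epha8* and *Efna2* they were the only ones of the 51 called there, beside 9.82% of all genes. In Q808 against PTZ, *Efna4*, *Vav3* and the cofilin phosphatase gene *Ssh3* were called higher, and in Q808 against Con. *Efna2* was called lower. Between striatum-rich and striatum-poor libraries, 15 of the 51 genes were lower and 6 higher without overlap, beside 9.59% and 15.2% of all genes. *Ngef*, encoding ephexin, the exchange factor bound by EphA4, measured 160 to 236 FPKM in the striatum-rich and 33.7 to 48.0 FPKM in the striatum-poor libraries.

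**Figure D4:**
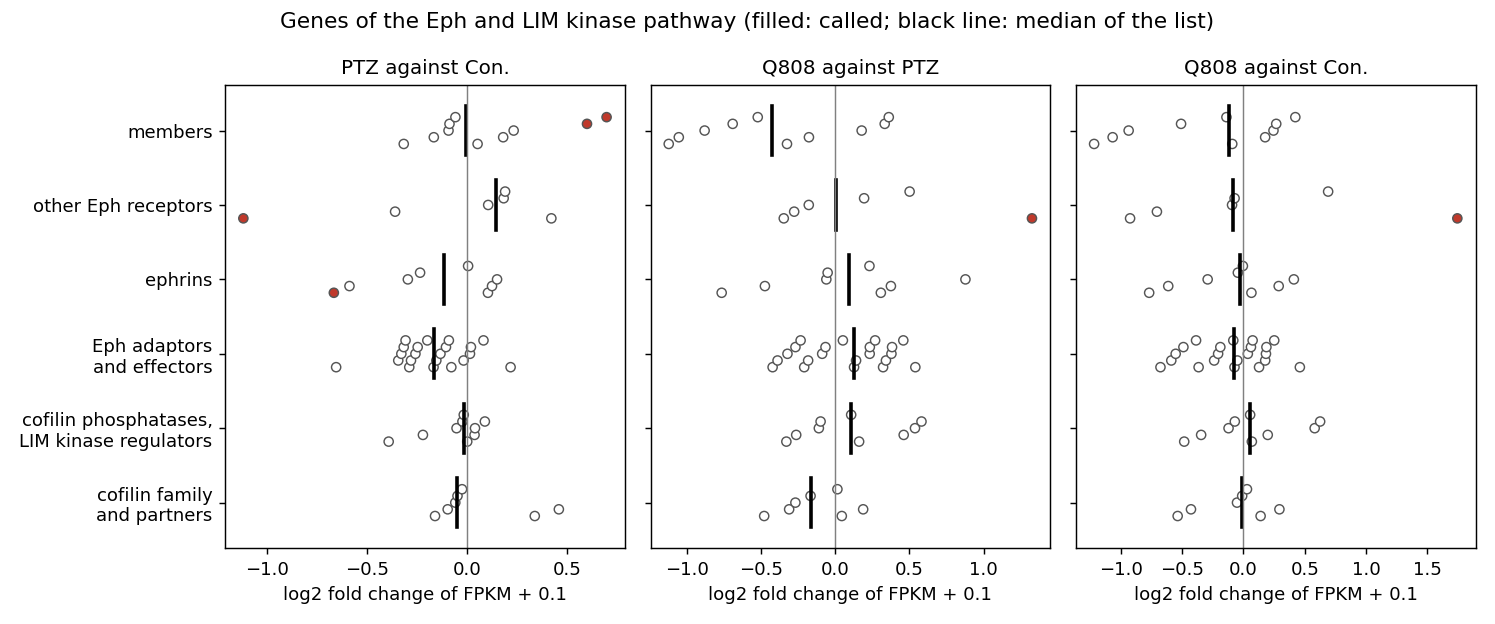
Log2 fold change of FPKM + 0.1 (horizontal axis) of the members and of 51 tested pathway genes in 5 lists (rows) for the 3 comparisons, with filled circles for called genes and a black line at the median of each list. Filled circles stand for *Limk1*, *Epha10*, *Epha8* and *Efna2* in PTZ against Con. and for *Epha2* in both comparisons of Q808.

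Genes with the pattern most like that of *Limk1* were searched among 12342 named genes with a mean of at least 1 FPKM, by Pearson correlation of log2(FPKM + 0.1) over the 8 libraries. The 5 nearest were *Shisa8*, *Maff*, *Pou6f1*, *Pla2g4a* and *Acap2*, with r of 0.95 to 0.97. *Maff*, encoding a small Maf transcription factor, measured 0.261 to 0.556 FPKM in the Con. and 4.13, 8.22 and 0.679 FPKM in PTZ-1, PTZ-2 and PTZ-3. For *Epha10* the nearest were *Tslp*, *Baz1a*, *Rfx4*, *Smad7* and *Plk3*, with r of 0.95 to 0.97. *Plk3*, a polo-like kinase gene, measured 6.12, 8.66 and 3.20 FPKM in the PTZ libraries against 1.78 to 4.57 FPKM in the Con. libraries. All of these correlations share the same 8 libraries and were the highest of many, so they carry no p-value.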

How the data were processed

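RNA of 8 hippocampal samples was measured by RNA sequencing, with samples grouped by the treatment in their labels. The deposited values are FPKM per gene, which the authors computed from reads trimmed with Trimmomatic and mapped to the genome, and the submitters' processing notes name HISAT2, Bowtie2, Cufflinks, StringTie, HTSeq, DESeq and SAMtools. Their versions and the genome build are not given in the sources used here, nor is the use of strand in counting. Of the annotation columns of the files, only the gene identifiers were used.

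Symbols came from the RefSeq table of GRCr8 for 20633 of 22601 genes. The 15593 genes with a mean of at least 0.1 FPKM were tested on log2(FPKM + 0.1), so fold changes of low genes are understated. Each comparison was fitted on its own 2 groups with limma 3.58.1 (empirical Bayes with trend, R 4.3.3) and Benjamini-Hochberg adjusted. Called means p under 0.05 and more than 1.5-fold. Striatum-poor libraries were fitted with 3 groups together. The test of the difference between striatum-poor and striatum-rich effects was added after the data were seen, with 1 library per group on the striatum-rich side. Low FPKM are whole multiples of what 1 fragment is worth, which gave relative depth and the fragments behind each value; counting errors cover counting alone. Figures and sequences used Python 3.11.15, numpy 2.4.6, pandas 2.3.3 and matplotlib 3.10.9. Simulated data with known changes were used to test the limma script. Exact permutation tests used the mean of log2(FPKM + 0.1), with a two-sided p-value of 2 times the smaller tail.

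The members, the lists and the division by striatum markers were chosen with earlier results of these data known. Named genes were all members, up to 4 called genes and the most abundant gene per list, and the 5 genes most like *Limk1* and *Epha10*. A further list of pathway genes is not reported here. *Drd1*, *Adora2a*, *Otx2*, *Ngef* and the genes called in striatum-poor libraries alone were named after their values were seen. Replicate numbers of the labels were checked as pairs. Deviations from the group means correlated at 0.31, 0.39 and 0.47 between Con. and PTZ libraries of the same number. Of these, number 3 is striatum-rich in both groups, while PTZ-1 correlated better with Con.-2, at 0.45. Q808-1 correlated at -0.44 with PTZ-1 and -0.46 with Con.-1, and Q808-2 at 0.42 with PTZ-2 and 0.66 with Con.-2. Alternatives were other pseudocounts, filters, scalings and fits, the replicate block, a striatum covariate, the striatum-poor libraries and leaving out each library.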

Additional observations from a re-analysis of the deposited data

Results flagged for a closer look

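Effects of a comparison that differed between the striatum-poor and the striatum-rich libraries are listed here, by a test of that difference in limma at an unadjusted p-value under 0.05. On the striatum-rich side each group has 1 library. None of these passed adjustment over all genes, and such a difference was found in 22.7% of all genes and 4 of 10 members in PTZ against Con. In Q808 against PTZ it was found in 18.9% of all genes and 3 members, and in Q808 against Con. in 12.4% and 4 members.

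In PTZ against Con. the log2 effect was larger in the striatum-poor libraries by 0.84 for *Epha4* (0.22 against -0.62), 1.23 for *Epha10* (1.11 against -0.12), 0.90 for *Ephb1* (0.21 against -0.69) and 0.80 for *Limk1* (0.87 against 0.07). In Q808 against PTZ the difference was 1.15 for *Epha6* (-0.15 against -1.29), -1.40 for *Epha10* (-1.13 against 0.27) and -0.87 for *Limk1* (-0.50 against 0.37). In Q808 against Con. it was 1.04 for *Epha4* (-0.33 against -1.37), 1.64 for *Epha6* (-0.15 against -1.79), 0.60 for *Epha7* (-0.56 against -1.16) and 0.73 for *Ephb1* (0.42 against -0.31). Comparisons share libraries, so these are not separate pieces of evidence.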

How the results depend on the processing

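Values are log2 fold changes unless they count called members, and the cause of a change was not tested. For the alternatives other than the striatum-poor libraries the share of all genes called is not given here. Their counts of called members are a description. In PTZ against Con. 2 members were called, 0 with a pseudocount of 1, and 1 with no filter on low values, all 3 groups in one fit, quantile normalization, the replicate block or the striatum covariate. *Limk1* lost its call with a pseudocount of 1 (0.57) and with the covariate (0.58), both by the fold limit. *Epha10* lost it with a pseudocount of 1 (0.58, by the fold limit), with no filter, all 3 groups or the block (0.70 each), and with quantile normalization (0.72). In Q808 against PTZ 0 members were called, 3 with the block (*Epha4*, *Epha5* and *Epha7*) and 2 with the covariate (*Epha4* at -0.64 and *Epha7* at -0.86). *Epha10* lay at -0.53 with the covariate and was not called. The pair called in the striatum-poor libraries was another, *Epha7* at -0.66 and *Epha10* at -1.13. In Q808 against Con. 0 were called, 4 with the block (*Epha4*, *Epha5*, *Epha7* and *Ephb1*) and 2 with the covariate (*Epha4* at -0.92 and *Epha7* at -1.04). In both Q808 comparisons the block leaves 2 pairs and sets striatum-rich Q808-1 against a striatum-poor library, PTZ-1 or Con.-1. The numbers were not shown to pair the rats. Directions turned in the striatum-poor libraries for *Epha4* (0.22) and *Ephb1* (0.21) in PTZ against Con. and for *Epha10* (-0.025) and *Ephb2* (0.068) in Q808 against Con. They turned with the covariate for *Epha7* (-0.11) and *Ephb1* (0.017) in PTZ against Con., and with the block for *Ephb2* (-0.39) in Q808 against PTZ.

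Leaving out each library in turn gave 0 to 2 called members in PTZ against Con., with *Limk1* at 0.48 to 0.82, *Epha10* at 0.52 to 0.93, *Epha4* at -0.39 to 0.40, *Epha5* at -0.32 to 0.53, *Epha6* at -0.67 to 0.50, *Epha7* at -0.36 to 0.51, *Ephb1* at -0.33 to 0.34, *Ephb2* at -0.81 to 0.25 and *Limk2* at -0.26 to 0.018. It gave 0 to 4 in Q808 against PTZ, with *Epha5* at -1.48 to 0.11, *Epha6* at -2.63 to 0.52 and *Ephb2* at -0.52 to 0.87. It gave 0 to 3 in Q808 against Con., with *Epha5* at -1.30 to 0.29, *Epha6* at -2.79 to 0.36, *Epha10* at -0.26 to 0.61, *Ephb1* at -0.012 to 0.70, *Ephb2* at -0.83 to 0.56 and *Cfl1* at -0.22 to 0.035. A group of 2 then rests on 1 library, assumed to vary like the other group. Depth limits *Ephb2* and *Epha6* most.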

Other observations

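The balance of the LIM kinases was examined after the values were seen. The ratio of *Limk1* to *Limk2* FPKM was 3.43 in PTZ-1 and 3.77 in PTZ-2, and between 1.502 and 2.01 in the other 6 libraries, PTZ-3 with 1.59 among them. The ratio of both Q808 libraries, 2.01 and 1.83, lay near that of Con.-3, 1.83. *Epha4* held 34.8% of the summed FPKM of the 7 Eph receptors in Q808-1, 44.8% in PTZ-3 and 50.2% to 57.6% in the other 6 libraries, so the striatum-rich Con.-3, at 51.1%, was among those.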
